A study of Mus musculus with 6 samples.

Results

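The thyroid hormone genes described here are 9 genes for the receptors, a transporter, an activating enzyme and responsive targets of the hormone, measured in the mucosa of the terminal ileum of mice. They were chosen by gene symbol from the platform annotation, with earlier results of these data known. All 30 probe sets that carry exactly 1 of the 9 symbols were taken, of 45037 probe sets in all. The 9 genes stand among 18193 genes named on the array. The samples were 3 Duoxa-/- pools and 3 wt pools of RNA, all from female mice of strain background 129S6 at an age of 3 months. Each of 3 cages housed 1 litter with both genotypes and gave 1 pool per genotype, made from 2 to 3 animals. The labels do not say which of the neighbouring maturation factor genes the duoxa-/- allele removes, and say nothing of the mice's hormone levels or of hormone replacement. The animals of a pool share 1 array, so the spread between arrays is a spread between pools and the 6 arrays limit the precision of every value.

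Thyroid hormone is made in the thyroid gland with hydrogen peroxide from the dual oxidases, which need the DUOXA maturation factors to reach the cell surface, so that loss of these factors can lower circulating hormone. Cells take the hormone up through membrane transporters, deiodinases convert thyroxine to the active triiodothyronine (T3), and T3 binds nuclear receptors that sit on DNA as partners of retinoid X receptors and switch their targets from repression to activation. In the intestine of mice the alpha receptor is known for its role in the proliferation of crypt cells. The comparison of Duoxa-/- with wt ileum bears on whether genes of this axis differ in a tissue outside the thyroid.

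RefSeq promoters of build GRCm38.p6 were matched for 7 of the 9 genes, with 9 start sites in all. Each covers 250 bases before to 50 bases after a start site. They are shown for the transporter Slc16a10 and for Klf9, whose probe sets gave the clearest separations below, and for the beta receptor Thrb, the gene with a match to the receptor hexamer. The hexamer AGGTCA, the core sequence that thyroid hormone receptors recognise, was searched on both strands and is in capitals.
Slc16a10, chr10:40142205-40142504, minus strand: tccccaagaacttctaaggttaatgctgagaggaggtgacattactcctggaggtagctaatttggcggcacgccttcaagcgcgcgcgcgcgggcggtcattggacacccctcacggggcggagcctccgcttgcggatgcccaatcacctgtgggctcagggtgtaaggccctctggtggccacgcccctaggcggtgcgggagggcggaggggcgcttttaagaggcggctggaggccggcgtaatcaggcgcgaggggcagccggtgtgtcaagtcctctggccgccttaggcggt
Klf9, chr19:23140976-23141275, plus strand: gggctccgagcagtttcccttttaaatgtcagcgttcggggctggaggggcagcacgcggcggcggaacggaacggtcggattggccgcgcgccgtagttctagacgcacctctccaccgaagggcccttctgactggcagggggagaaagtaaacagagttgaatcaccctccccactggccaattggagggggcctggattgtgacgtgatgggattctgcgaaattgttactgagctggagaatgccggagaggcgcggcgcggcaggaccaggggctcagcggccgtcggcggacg
Thrb, chr14:17660710-17661009, plus strand: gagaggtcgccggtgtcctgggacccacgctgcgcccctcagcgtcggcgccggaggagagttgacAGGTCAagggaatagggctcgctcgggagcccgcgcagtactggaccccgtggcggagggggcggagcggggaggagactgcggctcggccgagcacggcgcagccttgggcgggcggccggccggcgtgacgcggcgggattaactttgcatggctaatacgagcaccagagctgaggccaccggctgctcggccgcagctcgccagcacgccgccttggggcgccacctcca
The hexamer occurred in 1 of the 9 promoters of these genes and in 16.3% of all 32851 promoters of the same length. The spaced direct repeat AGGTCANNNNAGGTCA, which contains the hexamer, occurred in 0 of the 9 and in 0.0152% of all. A missing match says only that these letters are not in the window shown.

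Array medians lay between 6.55 and 6.60, and the lowest correlation between 2 arrays across probe sets was r = 0.994. Duoxa2, the maturation factor of DUOX2, read 5.90, 5.55 and 5.92 in the Duoxa-/- pools of cages 1, 2 and 3, against 8.81, 8.36 and 7.24 in the wt pools. This difference of -2.34 (SE 0.33) did not pass over all probe sets (limma adjusted p = 0.794) and passed without the wt pool of cage 3, whose Duoxa2 was the lowest of the wt pools (difference -2.79, limma adjusted p = 0.0158). The labels do not place this probe set inside or outside the deletion. Duoxa1, the neighbouring maturation factor gene, averaged 6.16 in Duoxa-/- and 6.31 in wt pools, below the median of all probe sets. Its groups overlapped (difference -0.15, SE 0.12, limma adjusted p = 0.822). Duox1 was dimmer still and differed by 0.09 (SE 0.10). The ileal markers Fabp6, the bile acid binding protein, and Slc10a2, the bile acid transporter of the ileum, averaged 14.72 and 12.37 in Duoxa-/- pools, against 14.72 and 12.33 in wt pools, all far above the median of all probe sets of 6.58.

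None of the 30 probe sets differed between the genotypes after adjustment over all 45037 probe sets, either higher or lower. With limma, 0 of all probe sets were called in either direction (0% of those tested), and the adjusted p of the 30 lay between 0.794 and 0.995. At an unadjusted p under 0.05, 3 of the 30 were lower in Duoxa-/- pools, which is 10% of them, against 2.63% of all probe sets, and 0 were higher, against 3.35%. The same 3 probe sets had an unadjusted p under 0.05 with cage as a block, against 6.6% of all probe sets in either direction. In 4 of the 30 every Duoxa-/- pool lay below every wt pool, against 5.36% of all probe sets, and in 0 did every Duoxa-/- pool lie above, against 6.25%. These 4 were 2 probe sets of Slc16a10, 1 of Klf9 and 1 of Atp1b1. The median difference was -0.07 over the 30 and 0.0013 over all probe sets, and the median standard error of the 30 was 0.11. Below 0 were 23 of the 30, against 22317 of all 45037. Counted by gene, with the brightest probe set of each, 7 of 9 lay below 0, against 9797 of 18193 genes. By gene 1 of 9 was lower at an unadjusted p under 0.05, against 3.58% of all genes, and 0 higher, against 1.83%. The groups did not overlap in 2 of the 9, against 11.5%. Without single pools 3 or 4 of the 30 were lower at an unadjusted p under 0.05, against 1.57% to 4.49% of all probe sets. In the same fits 0 of the 30 were higher, against 1.65% to 5.01%. The median of the 30 then ranged from -0.13 (wt pool of cage 3 left out) to -0.03 (Duoxa-/- pool of cage 3 left out). Of the 30, 24 reached the median of all probe sets in at least one group, and the 6 dimmer ones were the Thrb probe set, 1 of 7 of Klf9, 1 of 2 of Hr, 2 of 4 of Slc16a10 and 1 of 5 of Atp1b1. Values of different probe sets are not compared in level, because probes differ in affinity. The 9 genes were chosen with earlier results of these data known, so the counts and shares above are given as a description.

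**Figure D1:**
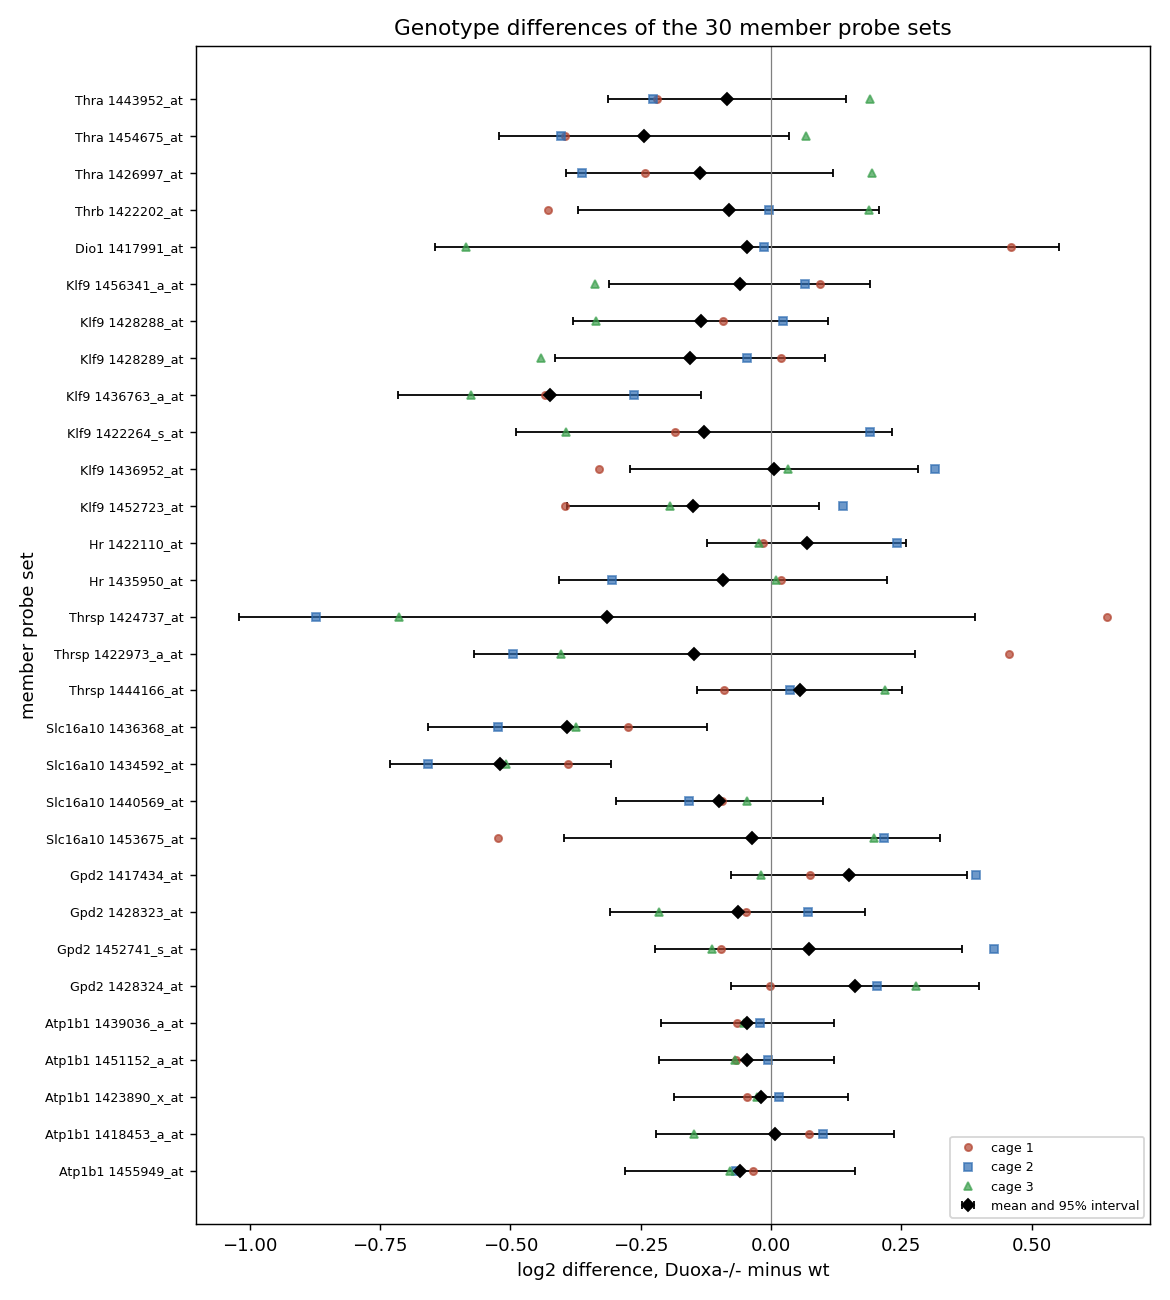
Log2 difference (Duoxa-/- minus wt) of each of the 30 probe sets, with the mean and its 95% confidence interval from limma as black diamonds and bars and the difference within each cage as coloured points. The intervals of 2 Slc16a10 probe sets and 1 Klf9 probe set lie below 0 before adjustment, and Dio1 and Thrsp have the widest intervals.

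Slc16a10 encodes a membrane transporter of aromatic amino acids that also carries thyroid hormones, and it showed the clearest separation of the 9 genes. Its brightest probe set (1436368_at) read 9.62, 9.77 and 9.84 in the Duoxa-/- pools of cages 1, 2 and 3, against 9.90, 10.29 and 10.21 in the wt pools. All Duoxa-/- pools lay below all wt pools, although the gap between the highest Duoxa-/- and the lowest wt pool was small. The difference was -0.39 (SE 0.12, 95% interval -0.66 to -0.12, limma adjusted p = 0.794), or 1.31-fold lower. The next probe set (1434592_at) read 8.30, 8.32 and 8.35 in Duoxa-/- pools, against 8.69, 8.98 and 8.86 in wt pools. The Duoxa-/- pools were nearly equal here, while the wt pools spread over a wider range well above them. Its difference was -0.52 (SE 0.09, 95% interval -0.73 to -0.31), or 1.43-fold lower, with -0.39, -0.66 and -0.51 in cages 1, 2 and 3. By unadjusted p it ranked 12 among the 45037 probe sets, yet its limma adjusted p was also 0.794. Without single pools or cages the difference lay between -0.60 and -0.45, with adjusted p from 0.424 upwards, so that no such subset passed.

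The other 2 probe sets of Slc16a10 were dim. The probe set 1440569_at averaged 6.38 ± 0.06 in Duoxa-/- pools and 6.48 ± 0.11 in wt pools (SD, n = 3 each), with a difference of -0.10 (SE 0.09) that was below 0 in all 3 cages. The probe set 1453675_at read 4.99, 5.28 and 5.55 in Duoxa-/- pools, against 5.52, 5.07 and 5.35 in wt pools, and its groups overlapped widely. The separation of Slc16a10 thus appears in its 2 bright probe sets, while both dim ones lie below the median of the array.

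**Figure D2:**
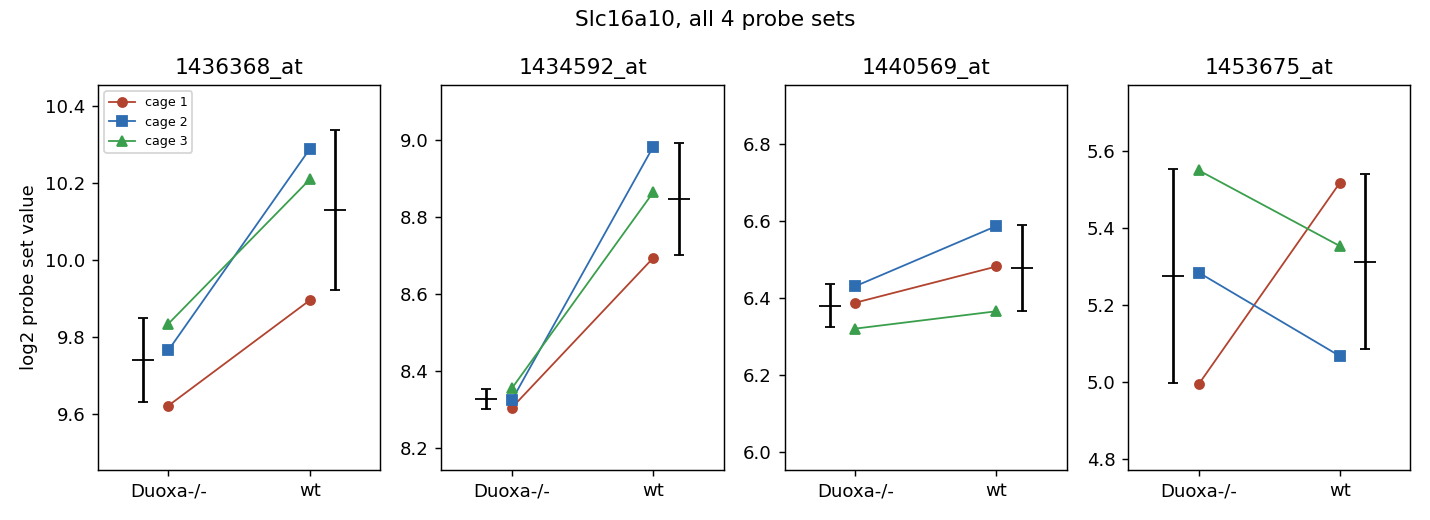
Log2 values of the 4 Slc16a10 probe sets, from the brightest on the left to the dimmest on the right, with Duoxa-/- pools left of wt pools and a line joining the pools of a cage. Black bars give mean ± SD over 3 pools, and in both left panels all 3 lines run upward to wt.

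Markers of the cell types in the mucosa were set beside these values, since in pooled tissue fewer cells of a type and less RNA per cell cannot be told apart. The mean of 6 enterocyte markers, relative to the 6 arrays, was -0.01, -0.20 and 0.09 in the Duoxa-/- pools, against 0.06, -0.03 and 0.10 in the wt pools, and 0 of the 6 had groups that did not overlap, against 11.5% of all genes. Smooth muscle markers (6 of 6 measured) lay between -0.34 and 0.09 in Duoxa-/- pools and between -0.18 and 0.47 in wt pools. T cell markers (5 of 5 measured) lay between -0.25 and 0.17 in Duoxa-/- pools and between -0.19 and 0.46 in wt pools. The single markers had differences below 0, as Slc16a10 did, in 6 of 6 smooth muscle markers (median -0.24), 5 of 5 T cell markers (median -0.21) and 5 of 6 enterocyte markers (median -0.05). Over all genes 9797 of 18193 differences lay below 0. In the other marker lists these were 1 of 3 for B and plasma cells (median 0.015) and 3 of 6 for goblet and Paneth cells (median 0.0027). They were 2 of 4 for enteric neurons (median -0.09) and 2 of 3 for adipocytes (median -0.01). None of these markers passed. At an unadjusted p under 0.05 only 1 of all these markers was lower, the brush border peptidase Anpep at -0.36 (SE 0.13), against 3.58% of all genes. At that threshold 0 were higher, against 1.83%. Without single pools the medians lay between -0.41 and -0.08 for smooth muscle, -0.38 and -0.10 for T cells and -0.12 and 0.02 for enterocytes. The groups overlapped for the list means of enterocytes, smooth muscle and T cells, and the part of cell composition in the Slc16a10 values was not tested.

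The nuclear receptors carry the hormone signal to DNA. The alpha receptor Thra had 3 probe sets, each with a mean difference below 0 and overlapping groups. The brightest (1443952_at) read 8.43, 8.42 and 8.69 in the Duoxa-/- pools, against 8.65, 8.64 and 8.50 in the wt pools. In cages 1 and 2 the Duoxa-/- pool was the lower one, and in cage 3 the higher one, so that the mean difference was -0.08 (SE 0.10, limma adjusted p = 0.871). The probe set 1454675_at read 8.24, 8.03 and 8.45 in Duoxa-/- pools, against 8.63, 8.43 and 8.39 in wt pools, and had the largest difference of the Thra probe sets at -0.24 (SE 0.12, 95% interval -0.52 to 0.03). The probe set 1426997_at differed by -0.14 (SE 0.11) with the same split between cages. Cages 1 and 2 thus gave -0.40 to -0.22 across the 3 probe sets, and cage 3 gave 0.07 to 0.19.

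The 3' end of Thra overlaps that of Nr1d1, the clock repressor REV-ERB alpha, on the opposite strand. Nr1d1 read 7.81, 7.87 and 7.70 in Duoxa-/- pools, against 8.08, 8.09 and 7.88 in wt pools, with -0.27, -0.23 and -0.18 in cages 1, 2 and 3 (mean difference -0.23, SE 0.09, limma adjusted p = 0.794). Its groups did not overlap, against 11.5% of all genes, whereas those of all 3 Thra probe sets overlapped. Whether a Thra probe set lies in the shared stretch was not examined, and the part of Nr1d1 in the Thra values was not tested.

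The beta receptor Thrb, which is known for its role in the liver and the pituitary, had 1 probe set (1422202_at), below the median of all probe sets. It read 5.80, 5.91 and 5.90 in Duoxa-/- pools, against 6.23, 5.92 and 5.71 in wt pools. The wt pools spread around the Duoxa-/- pools, and the difference of -0.08 (SE 0.13, 95% interval -0.37 to 0.21) was set by cage 1 (-0.43). Without that cage it was 0.09.

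Dio1 encodes the type 1 deiodinase, which makes T3 from thyroxine and is itself induced by T3 in rodent liver and kidney. Its probe set (1417991_at) read 10.05, 9.81 and 8.87 in the Duoxa-/- pools of cages 1, 2 and 3, against 9.58, 9.82 and 9.46 in the wt pools. The Duoxa-/- pools held both the highest and the lowest value of the 6. The differences within cages were 0.46, -0.01 and -0.58, which average to -0.05 (SE 0.26, 95% interval -0.64 to 0.55, limma adjusted p = 0.979). The interval runs from 1.56-fold lower to 1.47-fold higher, before any adjustment for the number of probe sets. Without the Duoxa-/- pool of cage 3 the difference was 0.30 (limma adjusted p = 0.806).

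Klf9 encodes a Krüppel-like transcription factor whose gene is a direct T3 target in several vertebrate tissues and also responds to glucocorticoids. Of its 7 probe sets, the 3 brightest stood close together. The brightest (1456341_a_at) read 12.74, 12.73 and 12.38 in Duoxa-/- pools, against 12.65, 12.67 and 12.72 in wt pools. The Duoxa-/- pool of cage 3 lay below the other 5 pools, which were between 12.65 and 12.74, and the difference was -0.06 (SE 0.11, limma adjusted p = 0.921). The probe sets 1428288_at and 1428289_at gave -0.13 and -0.16 (SE 0.11 each), with the same pool lowest. Without that pool the difference of the brightest probe set was 0.06.

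One Klf9 probe set, 1436763_a_at, separated the groups. It read 8.87, 9.05 and 8.56 in Duoxa-/- pools, against 9.31, 9.32 and 9.14 in wt pools. Every Duoxa-/- pool lay below every wt pool, with -0.43, -0.26 and -0.58 in cages 1, 2 and 3. The difference was -0.42 (SE 0.13, 95% interval -0.71 to -0.13, limma adjusted p = 0.794), or 1.34-fold lower, and lay between -0.54 and -0.29 without single pools or cages. The remaining 3 Klf9 probe sets differed by -0.15 to 0.01 with overlapping groups, so the 7 probe sets of Klf9 do not give 1 answer. The suffix of 1422264_s_at marks probes shared with other transcripts.

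Genes that respond to glucocorticoids were set beside Klf9. Of 6 such genes, 0 passed in either direction in the limma fit and 0 had an unadjusted p under 0.05, 5 of the 6 differences lay below 0 and their median was -0.22, against -0.01 over all genes. The median was -0.38 without the wt pool of cage 1 and -0.06 without the wt pool of cage 3. The list medians within cages were 0.01, -0.13 and -0.59 in cages 1, 2 and 3. Fkbp5, the chaperone partner that glucocorticoids induce, read 11.12, 11.49 and 10.53 in Duoxa-/- pools, against 11.18, 11.68 and 11.27 in wt pools. As for the 3 brightest Klf9 probe sets, its Duoxa-/- pool of cage 3 was the lowest of the 6. Tsc22d3, a leucine zipper protein that glucocorticoids induce, differed by -0.34 (SE 0.16), the clock gene Per1 by -0.20 (SE 0.18) and the zinc finger factor Zbtb16 by -0.24 (SE 0.23), each with an adjusted p of 0.794 to 0.849 from limma. Of the 6 genes only Tsc22d3 had groups that did not overlap, against 11.5% of all genes. With cage as a block 2 of the 6, Tsc22d3 and Fkbp5, had an unadjusted p under 0.05, against 6.05% of all genes, and 0 passed. The part of glucocorticoid signalling in the Klf9 values was not tested.

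Hr, a corepressor that is itself a T3 target in rodent brain, differed little. Its brighter probe set (1422110_at) read 7.20, 7.33 and 7.22 in Duoxa-/- pools, against 7.22, 7.09 and 7.25 in wt pools. The difference was 0.07 (SE 0.08, 95% interval -0.12 to 0.26), and the dimmer probe set (1435950_at) gave -0.09 (SE 0.14). For the brighter probe set the interval runs from 1.09-fold lower to 1.20-fold higher, before any adjustment for the number of probe sets.

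Thrsp, the classic T3 and carbohydrate responsive gene of lipogenic tissues, varied most between pools. Its brightest probe set (1424737_at) read 8.66, 8.00 and 7.43 in the Duoxa-/- pools of cages 1, 2 and 3, against 8.02, 8.87 and 8.15 in the wt pools. The order of the genotypes turned between cages, with 0.64 in cage 1, -0.87 in cage 2 and -0.71 in cage 3. The mean difference of -0.31 (SE 0.31, 95% interval -1.02 to 0.39, limma adjusted p = 0.851) was smaller than the spread within either group, 0.62 in Duoxa-/- and 0.46 in wt pools (SD, n = 3 each). The probe set 1422973_a_at followed the same order, with 0.46, -0.49 and -0.40 in the 3 cages, while the dimmer 1444166_at stayed between 6.76 and 6.98 in all pools.

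The genes whose values over the 6 arrays lay closest to those of Thrsp were Tlr7, H2-DMa and Cd200r4, with mean absolute gaps of 0.10, 0.10 and 0.11 on the log2 scale after each gene was centred on its own mean. Tlr7 is a receptor for single-stranded RNA, H2-DMa a chaperone of MHC class II peptide loading and Cd200r4 a receptor of myeloid cells. H2-DMa read 10.77, 10.34 and 9.68 in Duoxa-/- pools, against 10.31, 10.90 and 10.42 in wt pools. Tlr7 and Cd200r4 were dim, with means of 5.82 and 5.84 over the 6 arrays, below the median of all probe sets. With 18193 genes and 6 arrays, some genes lie close to any given pattern. Adipocyte markers, of which 3 of 5 were measured, averaged 0.31, -0.39 and -0.01 in Duoxa-/- pools relative to the 6 arrays, against -0.06, 0.11 and 0.04 in wt pools. T cell markers stood highest in the wt pool of cage 2 (0.46), as Thrsp did. Among the adipocyte markers Adipoq, the adipocyte hormone adiponectin, read 9.71, 8.60 and 9.19 in Duoxa-/- pools, against 9.04, 9.30 and 9.19 in wt pools, and Lep read between 4.87 and 5.34 in all pools. The part of immune cells or fat in the Thrsp values was not tested.

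**Figure D3:**
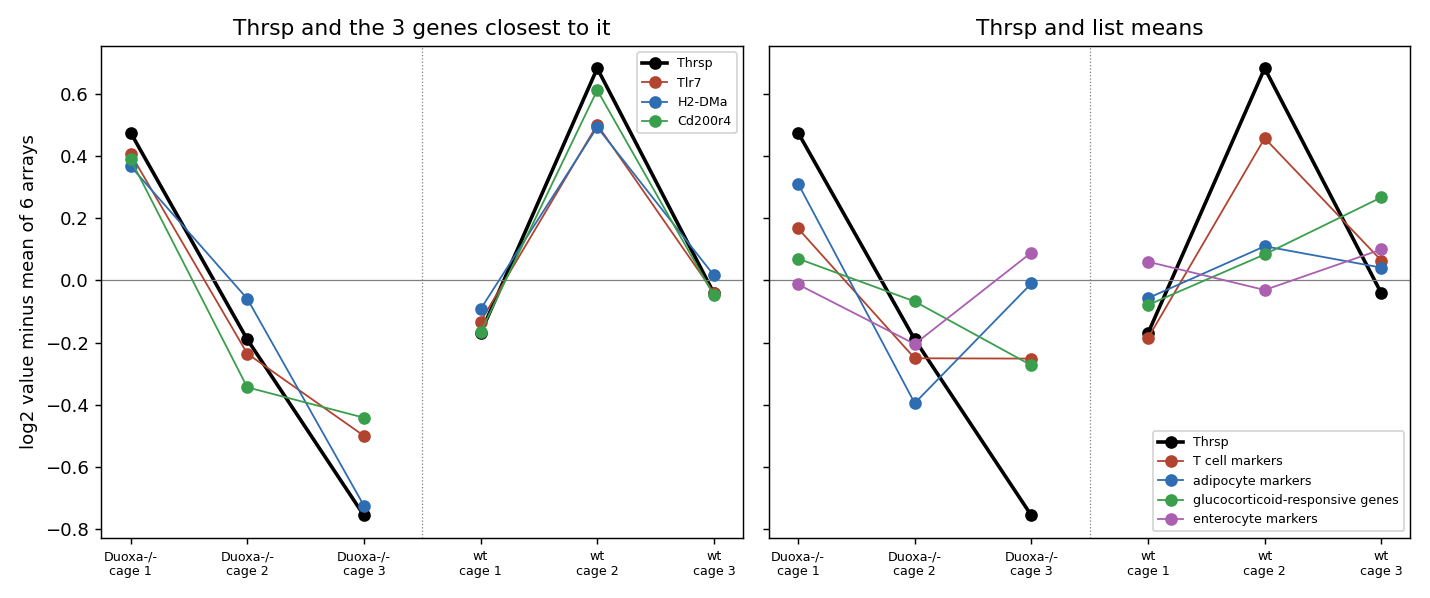
Log2 values minus the mean of the 6 arrays, with Duoxa-/- pools left of wt pools, for Thrsp (1424737_at, black) with the 3 genes closest to it on the left and with the means of 4 gene lists on the right. Thrsp and the 3 genes are highest in the wt pool of cage 2 and lowest in the Duoxa-/- pool of cage 3.

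Gpd2, the mitochondrial glycerol-3-phosphate dehydrogenase that T3 induces in rat liver, was the one gene whose brightest probe set and 2 others had differences above 0. The brightest (1417434_at) read 12.05, 12.19 and 11.90 in Duoxa-/- pools, against 11.98, 11.80 and 11.92 in wt pools. The difference was 0.15 (SE 0.10, 95% interval -0.08 to 0.38, limma adjusted p = 0.801), carried by cage 2 (0.39). The other 3 probe sets differed by -0.06, 0.07 and 0.16, and the groups overlapped in all 4.

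Atp1b1 encodes the beta 1 subunit of the sodium-potassium pump, whose genes T3 induces in several rodent tissues. Its brightest probe set (1439036_a_at) read 13.99, 14.00 and 13.99 in Duoxa-/- pools, against 14.05, 14.02 and 14.04 in wt pools. The groups did not overlap, but the difference was only -0.05 (SE 0.07, 95% interval -0.21 to 0.12), or 1.03-fold. The standard error from limma, which draws on the spread of all probe sets, exceeded that difference. The other 4 probe sets differed by -0.06 to 0.01.

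**Figure D4:**
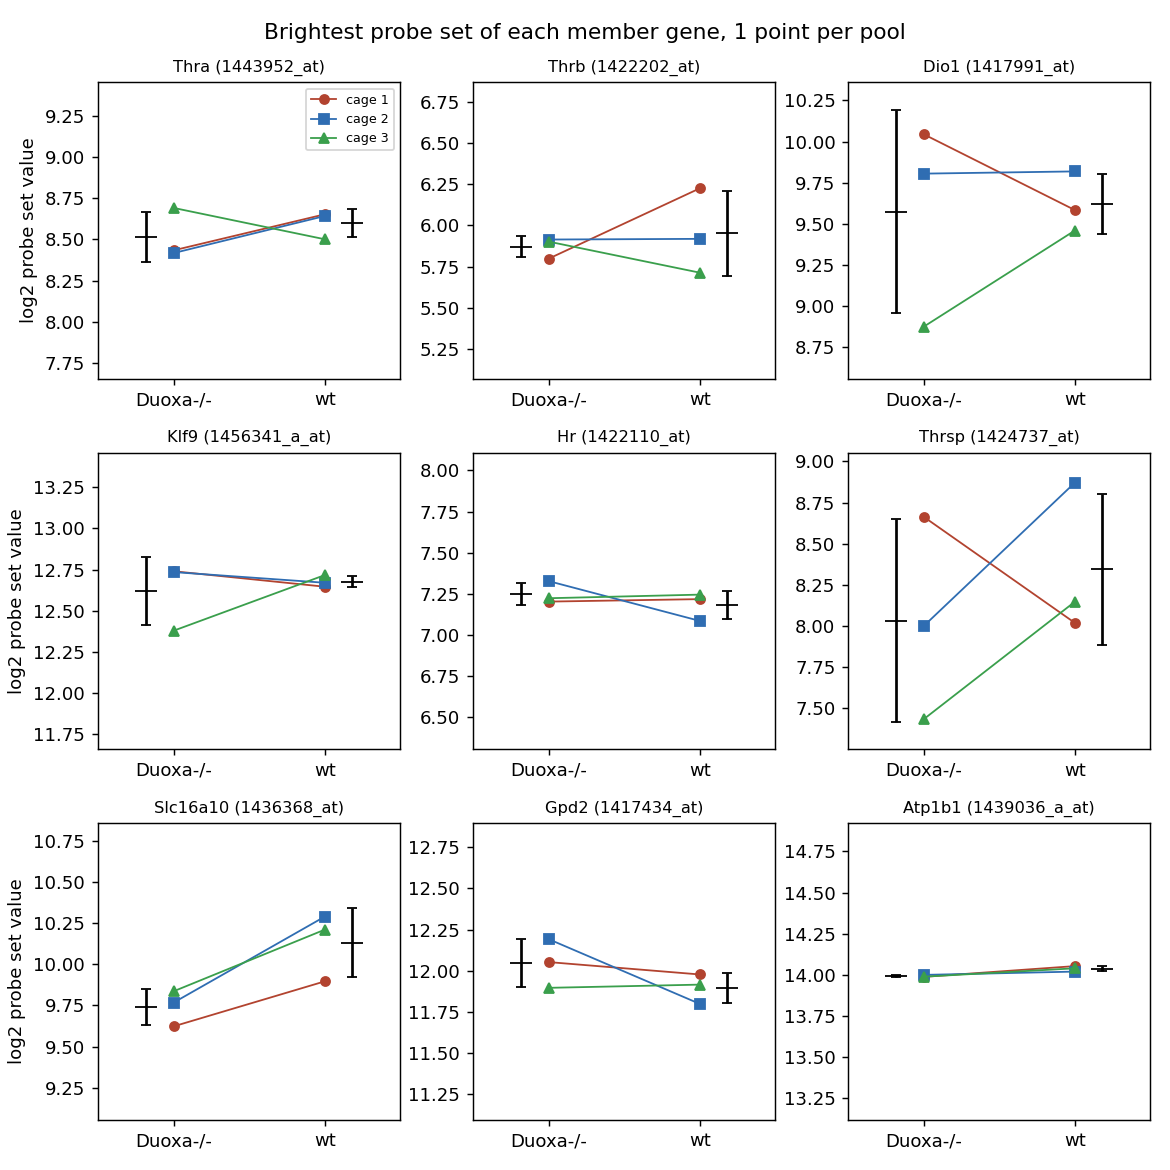
Log2 values of the brightest probe set of each of the 9 genes, with Duoxa-/- pools left of wt pools, a line joining the pools of each cage and black bars giving mean ± SD over 3 pools. All axes span the same range. Slc16a10 and Atp1b1 have no overlap between groups, and Dio1 and Thrsp have the widest spread.

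The cages were compared with genotype in the fit, by limma's moderated F-test. Of the 30 probe sets 0 passed after adjustment (smallest adjusted p 0.886), against 0.00222% of all probe sets, which is 1 probe set that belongs to none of the 9 genes. At an unadjusted p under 0.05 there were 2 of the 30, or 6.67%, against 5.55% of all. These were Dio1, with cage means of 9.81, 9.81 and 9.17 in cages 1, 2 and 3, and the dimmer Hr probe set (1435950_at), with 6.54, 6.53 and 6.19. In both, cage 3 was the low one. The Duoxa-/- pool of cage 3 was the lowest of the 6 pools in 11 of the 30 probe sets, against 13.4% of all probe sets, and 5 of those 11 belonged to Klf9. The wt pool of cage 1 was the lowest in 1 of the 30, against 23.9% of all. These counts were made after the values were seen, and probe sets of 1 gene share their RNA, so they are given as a description.

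Other genes of the pathway were taken from lists and represented by their brightest probe set. No member of any of these lists passed in either direction in the limma fit. Of 14 measured genes for transport and metabolism of the hormone, 0 passed, 5 differences lay above 0 and 9 below, with a median of -0.06 against -0.01 over all genes. At an unadjusted p under 0.05 there were 2, both lower in Duoxa-/- pools, against 3.58% of all genes, and 0 higher, against 1.83%. Slc3a2, the heavy chain shared by amino acid transporters that carry thyroid hormone, read 10.86, 10.74 and 10.94 in Duoxa-/- pools, against 11.04, 11.04 and 11.02 in wt pools (difference -0.19, SE 0.08, limma adjusted p = 0.794). Sult1a1, a phenol sulfotransferase, read 9.45, 9.17 and 9.25 in Duoxa-/- pools, against 9.51, 9.84 and 9.52 in wt pools (difference -0.33, SE 0.12). For both genes all Duoxa-/- pools lay below all wt pools. In 2 other genes of the list all Duoxa-/- pools lay above all wt pools, so that 4 of the 14 had groups that did not overlap, against 11.5% of all genes. These were Dio2 and Secisbp2, a factor for the synthesis of selenoproteins such as the deiodinases, with 9.51, 9.47 and 9.48 in Duoxa-/- pools, against 9.15, 9.42 and 9.43 in wt pools (difference 0.15, SE 0.10). Dio2, the type 2 deiodinase, was dim and read 5.56, 5.96 and 5.39 in Duoxa-/- pools, against 5.38, 5.32 and 5.35 in wt pools (difference 0.28, SE 0.14). Slc10a1, a bile acid transporter of liver, was dim as well and differed by -0.18 (SE 0.11). The median of the list lay between -0.08 and -0.01 without single pools, with -0.01, the value over all genes, without the wt pool of cage 3. With cage as a block, 2 of the 14 had an unadjusted p under 0.05, against 6.05% of all genes, namely Sult1a1 and Slc7a8, a transporter of neutral amino acids that also carries thyroid hormone, while Slc3a2 no longer did. Slc7a8 differed by -1.03, -0.44 and -0.20 in cages 1, 2 and 3 (mean -0.56, SE 0.34 without the block and 0.16 with it, limma adjusted p = 0.740 with it), with cage means of 8.08, 7.34 and 8.43. Between cages 3 of the 14 had an unadjusted p under 0.05, against 5.89% of all genes.

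Of 14 measured receptor partners and cofactors 0 passed and 0 had an unadjusted p under 0.05, 6 differences lay above 0 and 8 below, and the median was -0.01, with values from -0.04 to 0.04 without single pools. The coactivator Ncoa3 read 9.56, 9.42 and 9.35 in Duoxa-/- pools, against 9.25, 9.22 and 9.29 in wt pools (difference 0.19, SE 0.09, limma adjusted p = 0.794). Gps2, a subunit of the NCoR corepressor complex, differed by -0.39 (SE 0.21), Med1, the mediator subunit that binds nuclear receptors, by 0.14 (SE 0.09) and the retinoid X receptor Rxrb by -0.12 (SE 0.10). With cage as a block 1 of the 14, Gps2, had an unadjusted p under 0.05 (SE 0.15), against 6.05% of all genes. Even so, Gps2 differed by -0.61, -0.63 and 0.07 in cages 1, 2 and 3. Of the 14 genes only Ncoa3 had groups that did not overlap, against 11.5% of all genes.

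Of 13 measured genes that respond to the hormone in other rodent tissues 0 passed. At an unadjusted p under 0.05 there was 1, Pdk4, lower in Duoxa-/- pools, against 3.58% of all genes, and 0 higher, against 1.83%. Of the 13 differences 2 lay above 0 and 11 below, against 9797 of 18193 below 0 over all genes. The median of the list was -0.08, against -0.01 over all genes. Without single pools it ranged from -0.10 (wt pool of cage 3 left out) to -0.03 (wt pool of cage 1 left out), and was -0.04 without the wt pool of cage 2. Pdk4, the kinase that inhibits pyruvate dehydrogenase, read 6.50, 6.56 and 6.84 in Duoxa-/- pools, against 7.04, 7.24 and 6.88 in wt pools (difference -0.42, SE 0.12, limma adjusted p = 0.794). Its groups did not overlap, but cage 3 gave only -0.05. Pck1, the gluconeogenic enzyme, read 8.84, 8.62 and 10.15 in Duoxa-/- pools, against 9.79, 8.93 and 10.64 in wt pools, and was thus lower in the Duoxa-/- pool of every cage although the groups overlapped. Its difference of -0.58 had an SE of 0.47, and of 0.13 with cage as a block (limma adjusted p = 0.740). With the block 2 of the 13, Pck1 and Pdk4, had an unadjusted p under 0.05, against 6.05% of all genes. Ppargc1a, a coactivator of mitochondrial genes, differed by -0.21 (SE 0.14) and Mbp, the myelin basic protein gene, by -0.09 (SE 0.08). The groups of Mbp did not overlap, so that with Pdk4 2 of the 13 had groups that did not overlap, against 11.5% of all genes.

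Of 12 genes linked to the hormone in the intestine 0 passed. At an unadjusted p under 0.05 there was 1, Msi1, lower in Duoxa-/- pools, against 3.58% of all genes, and 0 higher, against 1.83%. The list had 6 differences on either side of 0 and a median of 0.0037, which ranged from -0.04 to 0.02 without single pools. Msi1, an RNA-binding protein of crypt progenitors, differed by -0.35 (SE 0.14), with -0.57, -0.37 and -0.10 in cages 1, 2 and 3. Alpi, the intestinal alkaline phosphatase, which T3 raises in human enterocyte-like cells, read 12.18, 12.16 and 13.07 in Duoxa-/- pools, against 13.02, 12.59 and 12.84 in wt pools (difference -0.35, SE 0.23, limma adjusted p = 0.801). Cages 1 and 2 gave -0.84 and -0.44, and cage 3 gave 0.23. Lct, the lactase gene, was dim and differed by -0.12 (SE 0.08) with groups that did not overlap, and Ccnd2, a cyclin, by 0.14 (SE 0.10). Lct was the 1 gene of the 12 with groups that did not overlap, against 11.5% of all genes.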

How the data were processed

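Mucosal RNA of the terminal ileum was pooled per cage and genotype, labelled with biotin by in vitro transcription and measured on 6 single-colour Affymetrix arrays, per the labels' protocols and the series' design text. The deposited values are the authors' log2 probe set summaries, for which the submitters' processing notes name RMA and affy. RMA subtracts background, makes array distributions alike and shrinks differences at low signal. Detection calls and tool versions were not used here.

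Of 45101 rows, 64 control probe sets were left out. Gene symbols came from the platform annotation (34945 probe sets with 1 symbol, 932 with several, 9160 unnamed), and all 30 probe sets of the 9 genes matched RefSeq (GRCm38.p6) by gene identifier with the same symbol. Genotypes were compared two-sided over all 45037 probe sets, by limma's lmFit and eBayes (limma 3.58.1, R 4.3.3), with Benjamini-Hochberg adjustment and a threshold of 0.05 on the adjusted p, without a cage term. For cages the moderated F-test was used, keeping genotype as a covariate. Differences are Duoxa-/- minus wt, SD is over 3 pools and SE is from limma. Labels give pools of separate cages as separate samples, so p values measure the spread between pools. Both fits were tested on simulated data with planted shifts larger than any genotype difference of the 30 probe sets. These tests do not cover shifts of that smaller size. Tables and figures used Python 3.11.15, pandas 2.3.3 and matplotlib 3.10.9.

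The genes and lists were chosen with earlier results of these data known. Named are all probe sets of the 9 genes, the checks of genotype and tissue, the 4 or fewer pathway genes of smallest p per list, and the 3 genes closest in pattern to the most variable of the 9 genes at or above the array's median. The markers Fabp6, Slc10a2, Anpep, Adipoq and Lep and the genes Secisbp2, Slc7a8, Dbp, Per2 and Per3 were named after their values were seen. Lists use 1 probe set per gene, the one with the highest mean over the 6 arrays, for 18193 genes, and 104 of 114 list entries were measured.

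Cages are litters by the series' design text, so the pools are paired by design. Deviations from the group means correlated, between the pools of 1 cage, with r = -0.15, 0.07 and 0.29 in cages 1, 2 and 3, which does not show the pairing in the data. Alternatives were the cage block, array weights, another variance prior, a filter on dim probe sets, 1 probe set per gene, renewed normalization and leaving out pools or cages.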

Additional observations from a re-analysis of the deposited data

How the results depend on the processing

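With cage as a replicate block, which pairs the pools, 0 probe sets were called, as without it, while 2971 rather than 2692 had an unadjusted p under 0.05; the block changed no call. No thyroid hormone probe set passed between genotypes or between cages under any alternative run. Without single pools or cages, 0 to 1 of all probe sets were called between genotypes, the 1 being Duoxa2 in the subset lacking the wt pool of cage 3. Between cages 1 probe set of the whole array was called, against 9 with an intensity trend and robust prior, 3 with median centring and 1 to 16 without single pools; the cause was not tested. Of 161 alternative values for the brightest probe sets of the 9 genes, 151 kept the direction and 10 turned it. Several alternatives, among them the cage block, the other variance prior and the filter on dim probe sets, leave the difference itself as it is. Their values could not turn, so the count of 151 overstates the stability. Of the 81 values without single pools or cages, 8 turned. The turned values were those of genes near 0: Dio1 at 0.045 with array weights and 0.22 without cage 3, Hr at -0.012 with the mean of its probe sets and -0.018 without cage 2, Thrb at 0.092 without cage 1 and Klf9 at 0.079 without cage 3. Without single pools the ranges were -0.20 to 0.056 for Thrb, -0.28 to 0.30 for Dio1 and -0.12 to 0.060 for Klf9. Without single pools or cages Slc16a10 ranged from -0.51 to -0.31, Thrsp from -0.79 to -0.01 and Gpd2 from 0.03 to 0.23. For Slc16a10 the mean of its 4 probe sets gave -0.26. The values of the further Slc16a10 and Klf9 probe sets under the alternatives were computed after the data were seen. Renewed normalization shifted the median difference by at most 0.01 in size. Signal over background could not be judged without detection calls.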

Other observations

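Circadian clock genes, several of which share their timing with Klf9 in rodent tissues, were measured for 12 of 12 list members. None passed between genotypes in either direction. At an unadjusted p under 0.05, 1 gene was higher (against 1.83% of all genes) and 1 lower (against 3.58%). The median difference was -0.19, against -0.01 over all genes. Cry1, a repressor of the clock, read 8.45, 8.28 and 8.28 in Duoxa-/- pools, against 7.72, 7.96 and 8.25 in wt pools (difference 0.36, SE 0.13, limma adjusted p = 0.794). The groups of Cry1 did not overlap, though the pools of cage 3 were nearly equal. Of the 12 genes 3 had groups that did not overlap, against 11.5% of all genes. In Cry1 all Duoxa-/- pools lay above all wt pools, and in the other 2 they lay below. The activator Arntl differed by 0.37 (SE 0.23) and the repressor Bhlhe41 by -0.14 (SE 0.08). The median of the clock list was -0.34 without the wt pool of cage 1 and -0.022 without the wt pool of cage 3. Between cages 7 of the 12 genes had an unadjusted p under 0.05 in the F-test, against 5.89% of all genes, though 0 passed after adjustment (smallest limma adjusted p 0.321). Cage 3 had the highest mean in 6 of these 7, among them Dbp, a clock output factor, with cage means of 10.32, 10.71 and 11.24, Per3 with 8.51, 8.57 and 9.37 and Per2 with 8.93, 9.16 and 10.05 in cages 1, 2 and 3. Arntl ran the other way, with 8.95, 8.87 and 8.27. With cage as a block 5 of the 12 had an unadjusted p under 0.05 between genotypes, against 6.05% of all genes, 2 of them higher and 3 lower in Duoxa-/- pools, and 0 passed. The labels give no time of day for the sampling.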
